A study of Elaeis guineensis with 9 samples.

Results

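In leaves of the African oil palm, Elaeis guineensis, 200 messenger RNA models out of 51490 transcript rows were taken as those that varied most among the palms of every population. The 9 libraries came from Tenera palms, the thin-shelled hybrid fruit form, aged 7 years and grown in 1 field, with leaf tissue taken at frond 17. They covered Deli x SP540, Deli x Yangambi and Deli x LaMe crosses, each with low, medium and high oil yield. Each of the 9 combinations was 1 library, so that a difference within a population is a difference between single libraries: the yield class, the individual palms and the handling of a library cannot be told apart. Whether 1 palm or a pool of palms went into a library is not stated in the labels, and every p-value below reflects only how far these 9 libraries spread.

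The members were chosen by their measured values. The starting point was the predicted mRNA models (accessions beginning with XM_) with a mean of at least 10 and under 1000 TPM (a length-corrected share scaled so that every library sums to 1000000). These numbered 11247, and 105 that stepped strictly up or strictly down with yield in all 3 populations were set aside. For each of the other 11142 rows the range within a population was taken as log2((highest + 1)/(lowest + 1)) over its 3 libraries, and the score was the smallest of the 3 ranges. The 200 highest scores, from 0.97 to 4.20 with a median of 1.18, made up the set; a score of 1.18 is a 2.27-fold range on the TPM + 1 scale in the population where the row varied least. Over all 11142 rows the median score was 0.21, or 1.16-fold. The size of these ranges is what chose the members, and it is given as a description.

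A transcript row is a model of 1 RNA form, and a gene can have several rows when alternative splicing, start sites or polyadenylation give its RNA more than 1 form. The level of a row can therefore change because the gene's output changes, or because the output is divided differently among its forms. Leaf mRNA levels are known in general to follow light, the time of day, wounding, pathogens and water supply. The gene table used here pairs accessions with locus numbers and holds no product names, and 0 of the 200 members had a gene name other than a locus number, so that no function is given to any of them.

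Genes that carry a name in that table gave a limited check of the tissue. CAT2, a catalase of leaf peroxisomes, was at 3458 to 7189 TPM. The floral regulators AGL2-5 and GLO1 and the embryo regulator BBM were listed at 0 in all 9 libraries. Other floral regulators, AG2, GLO2 and SQUA1, reached 0.405, 0.735 and 0.674 TPM, and DEF1, a petal and stamen regulator, was at 1.08 to 6.23 TPM. Photosynthesis genes were not among those checked, so these values do not establish leaf identity, which rests on the labels. The read depth behind each value cannot be read from TPM and is unknown. Between 33581 and 37060 rows were above 0 per library. The median log2 ratio of expressed rows to their own means was 0.13 in the medium-yield SP540 library and -0.04 to 0.05 in the other libraries. The 200 members held 0.525% of all TPM in the low-yield LaMe library and up to 1.09% in the low-yield Yangambi library.

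The members were mostly of low level. Of the 200, 125 (62.5%) had a mean of 10 to 20 TPM, against 37.3% of the 11142 rows that passed the rest of the rule. Another 66 had a mean of 20 to 100 TPM and 9 a mean of 100 TPM or more. In 47 members (23.5%) at least 1 library was under 0.1 TPM, against 1.81% of all rows passing, and 20 members were listed at 0 in at least 1 library. The part of estimation error at such levels was not tested. The score was computed from these same values, and a library near 0 widens the range of its population. The shares above are therefore a description and no result about the members.

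The members fell into 3 kinds. For 52 (26%) the row was the only row of the deposited table that paired with its gene, against 52.2% of the 11142 rows. For 66 (33%) it was 1 of 2 to 11 rows of its gene, against 26.8%. The other 82 (41%) were rows that paired with no gene of the table, against 21.0%. It is not known which other rows belong to the same gene as these. Genes of the first 2 kinds may have further rows among the unpaired ones, since 61.6% of all rows paired with a gene. Among the 20 highest scores, 13 rows were unpaired, 4 belonged to genes with several rows and 3 were the only row of their gene. The paired members came from 117 genes.

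**Figure D1:**
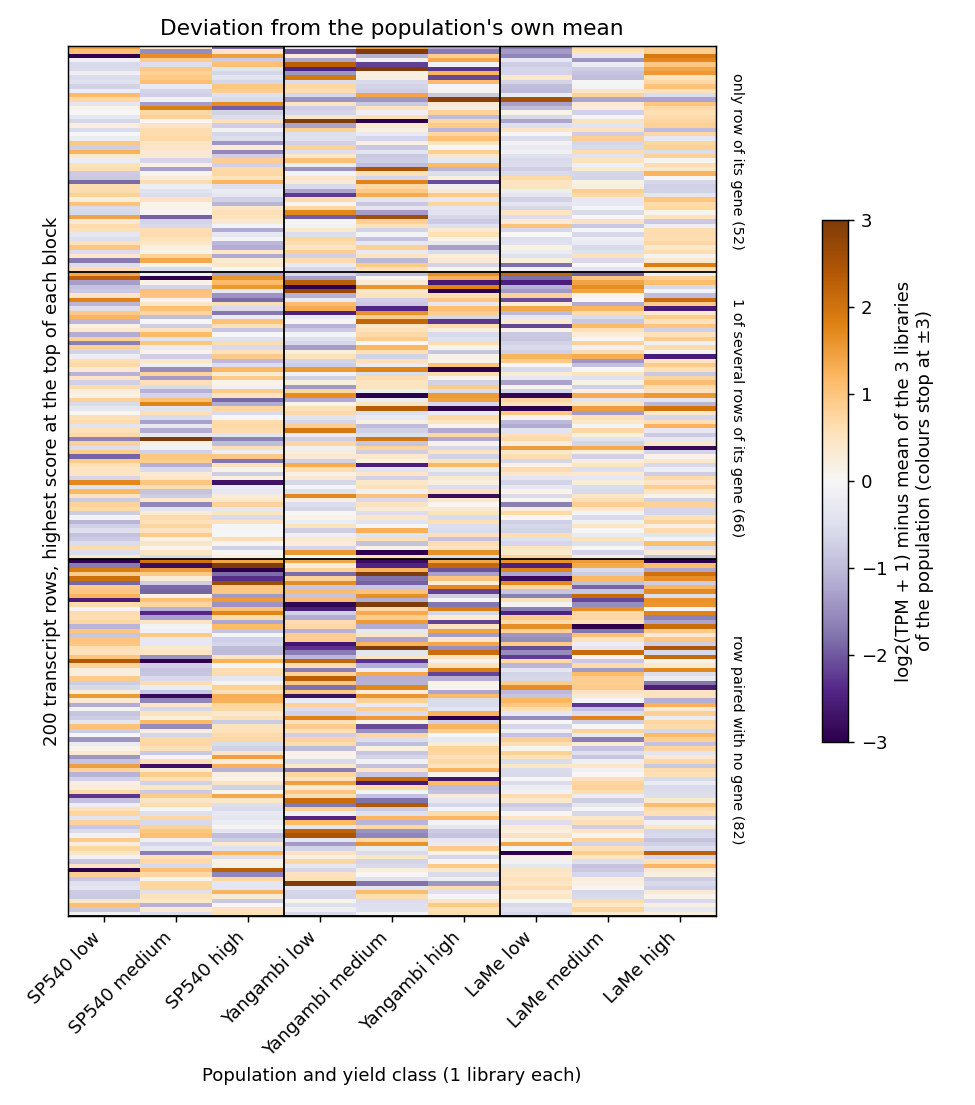
Deviation of log2(TPM + 1) from the mean of the 3 libraries of the same population, for 200 members (rows) in 9 libraries (columns). The members are in 3 blocks by kind (52 only rows paired with a gene, 66 rows of genes with several rows, 82 unpaired rows). The columns of each population are centred by construction, so that no population can be high or low as a whole.

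For most of the 66 members from genes with several rows, the gene sum had a lower score than the row. The rows were chosen for large ranges and the sums were not, so part of this gap follows from the rule. When all rows paired with the gene were summed, the sum reached the same score threshold of 0.97 for 5 of the 66 members. For 46 of them it stayed under that threshold in every population, and for the other 15 it reached it in 1 or 2 populations. The median score was 0.25 for the gene sums, a 1.19-fold range, and 1.13 for the rows themselves. The 2338 genes with several rows among all rows passing had a median of 0.18 for their sums. The share of the gene's TPM held by the member differed by a median of 45.1 percentage points between its highest and its lowest library, and by up to 100. Neither this share nor the gap between row and sum was computed for rows outside the set.

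LOC105055611 had 2 rows that took turns. The member XM_010937490.2 was measured at 0.228, 0.435 and 5.72 TPM in the low-, medium- and high-yield SP540 libraries, at 0.00184, 30.3 and 35.3 TPM in the Yangambi libraries, and at 4.55, 36.5 and 6.82 TPM in the LaMe libraries. The other row, XM_010937491.2, was at 50.8, 48.1 and 41.7 TPM in SP540, at 40.9, 13.0 and 0.000774 TPM in Yangambi and at 33.6, 9.51 and 48.8 TPM in LaMe. The member was low where the other row was high, and the sum of both kept within 35.3 to 55.6 TPM. The member made up nearly nothing of the gene in the low-yield Yangambi library (0.0045%) and 100% in the high-yield Yangambi library.

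LOC105045232 had a similar pattern, although its rows XM_029264632.1 and XM_010923438.3 had exactly the same value, 20.9 TPM, in medium-yield Yangambi. How reads were divided between these rows was not tested. Its member XM_029264632.1 was at 7.63, 16.7 and 35.8 TPM in the SP540 libraries, at 4.13, 20.9 and 0 TPM in the Yangambi libraries and at 14.8, 6.13 and 17.3 TPM in the LaMe libraries, in the order low, medium, high yield. The gene sum lay between 35.8 and 49.2 TPM in all 9 libraries. In the high-yield SP540 library the member accounted for the whole of the sum, and in the high-yield Yangambi library it was listed at 0.

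**Figure D2:**
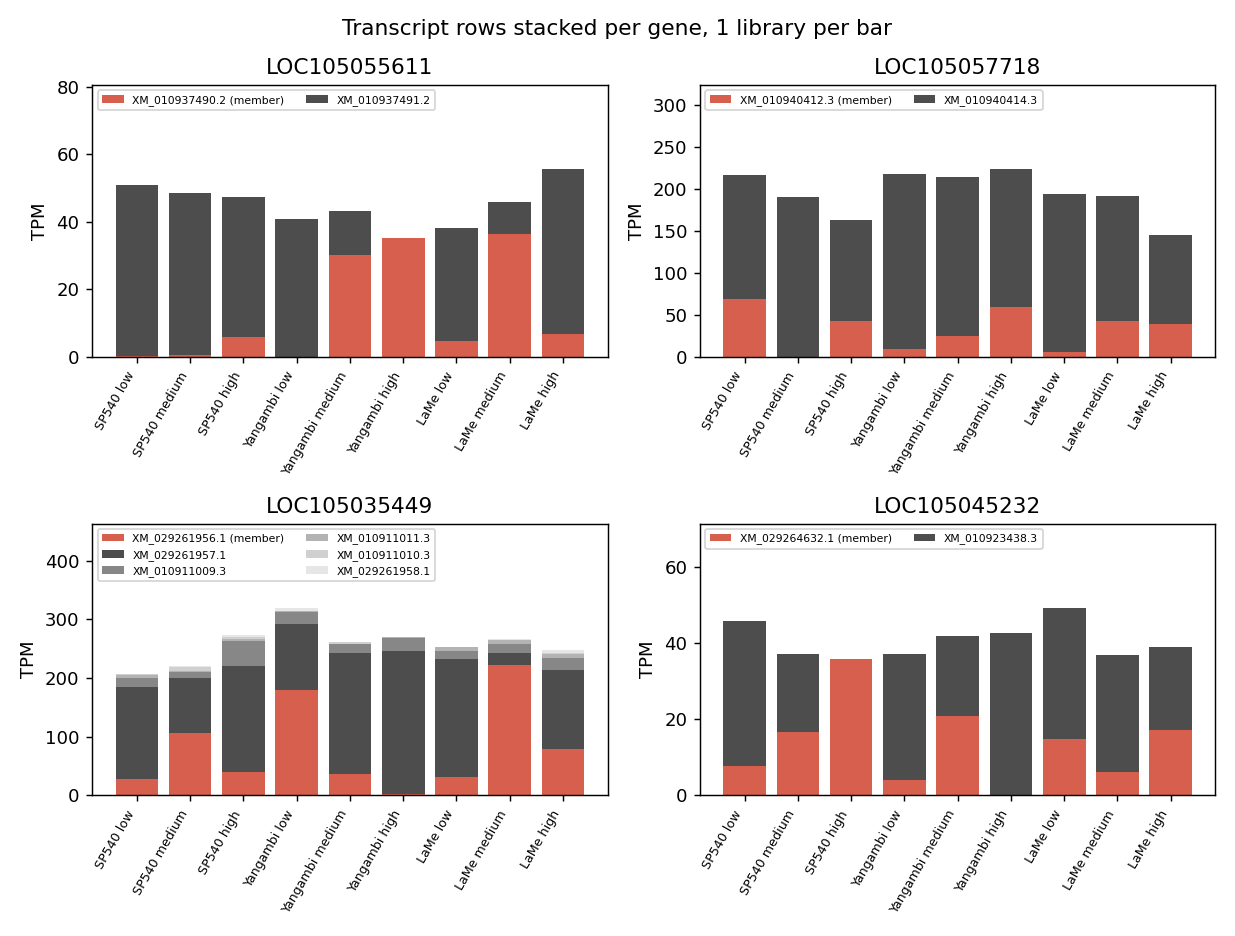
TPM of every transcript row of 4 genes, stacked, with 1 bar per library (SP540, Yangambi and LaMe, each low, medium and high yield) and the member in red. The 4 genes were picked as examples, and LOC105036456, whose sum also spread, is not drawn. In the genes shown the red part changes by a larger fold than the height of the bar, as in LOC105055611, where the sum kept within 35.3 to 55.6 TPM.

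In another pair of genes the member held under 50% of the gene in most libraries. LOC105057718 had a member, XM_010940412.3, at 68.6 TPM in low-yield SP540 and below 0.1 TPM in medium-yield SP540, and at 5.21 to 59.5 TPM in the other libraries. Its share of the gene never went above 31.7%, and the gene sum ranged from 145 to 223 TPM. LOC105035449 held the member XM_029261956.1, which was at 28.0, 106 and 40.2 TPM in SP540, at 180.2, 37.2 and 2.21 TPM in Yangambi and at 31.5, 223 and 79.6 TPM in LaMe. The sum of its 6 rows lay between 207 and 319 TPM, and the member's share of it between 0.821% and 83.6%. It was highest in medium and lowest in low yield in both SP540 and LaMe, and highest in low and lowest in high yield in Yangambi.

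The remaining rows of this kind among the highest scores were XM_019850775.2 of LOC105044676 and XM_019847625.1 of LOC105036456. The first ranged from 0.000483 TPM in low-yield LaMe to 32.0 TPM in low-yield Yangambi, in a gene whose sum kept within 53.5 to 72.7 TPM. The second ranged from below 0.1 TPM in medium-yield LaMe to 32.8 TPM in high-yield Yangambi. Its gene was different from those before it, because the sum of its 7 rows also spread, from 19.6 to 81.2 TPM over the 9 libraries, although in 1 population its range was only 0.05 on the log2 scale. XM_010911934.3, 1 of 11 rows of LOC105036172, was lowest in the low-yield library of all 3 populations (4.88, 19.9 and 8.14 TPM in SP540, Yangambi and LaMe), whereas the gene sum had ranges of 0.07 to 0.58.

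LOC105041288 was the only gene with 2 members. XM_010918187.3 was measured at 27.6, 33.6 and 3.42 TPM in the low-, medium- and high-yield SP540 libraries, at 4.09, 9.003 and 30.9 TPM in Yangambi and at 57.7, 25.5 and 25.99 TPM in LaMe. XM_010918188.3 was at 6.49, 12.0 and 16.7 TPM in SP540, at 14.6, 19.1 and 6.37 TPM in Yangambi and at 3.53, 10.7 and 6.88 TPM in LaMe. Both were minor forms, with at most 21.9% and 11.7% of the gene, and the class where one was lowest in SP540 (high yield) was the class where the other was highest.

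In 5 members the gene sum also reached the threshold. On average over the libraries, these rows held 71.5% to 99.5% of the TPM of the gene. They were XM_010936128.3 of LOC105054589, XM_010915489.3 of LOC105039351, XM_010939596.3 of LOC105057122, XM_010925217.2 of LOC105046587 and XM_010940560.3 of LOC105057855. Of the 48 members that held under 50% of their gene on average, 0 had a sum that reached it.

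**Figure D3:**
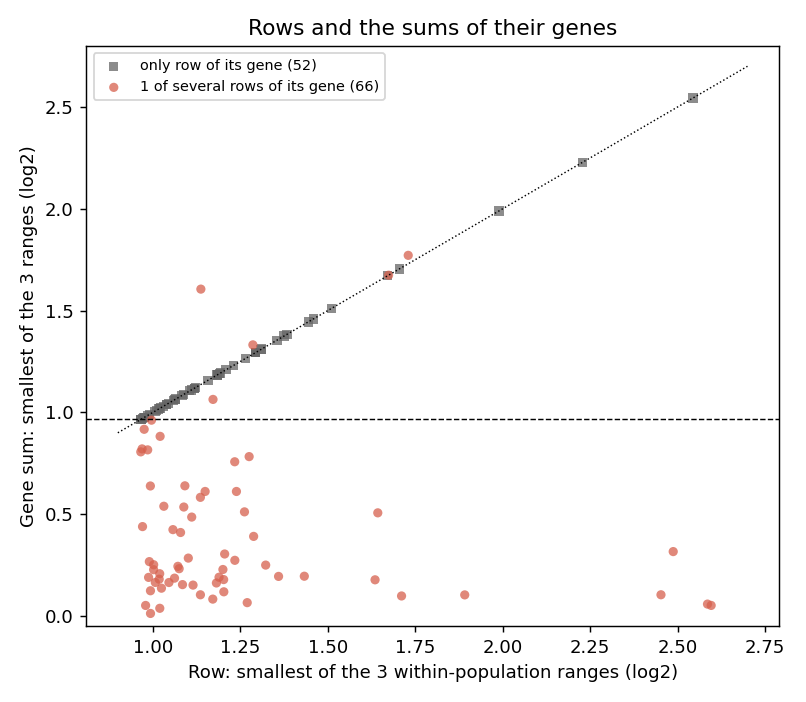
Score of the member row (horizontal, log2) against the score of the sum of all rows of its gene (vertical, log2) for the 118 paired members. The 52 rows that alone paired with their gene lie on the dotted line of equal scores by construction. Of the 66 others, 5 lie above the dashed line at the lowest member score of 0.97.

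The submitters' processing notes name kallisto, a program that estimates transcript levels and divides reads that match several models among them. The part of that division in the members' ranges was not tested, and the values of 1 pair of members are given here beside it. XM_010939448.3 and XM_029268069.1, both unpaired, had exactly the same value in 5 libraries: 83.4 and 63.6 TPM in low- and medium-yield SP540, 64.0 and 89.7 TPM in low- and medium-yield Yangambi, and 64.6 TPM in low-yield LaMe. In the other 4 libraries they parted, with XM_010939448.3 at 1.18 TPM in high-yield SP540, 8.13 TPM in high-yield Yangambi and 12.3 and 7.30 TPM in medium- and high-yield LaMe, where XM_029268069.1 was at 135, 147, 127 and 117 TPM. Their sum lay between 124 and 179 TPM, with ranges of 0.16 to 0.48 within populations. This was the only pair with a member in which 2 rows shared a value of at least 1 TPM in 2 or more libraries. Sharing in a single library was also seen, as in 2 rows of LOC105045232 (20.9 TPM in medium-yield Yangambi). The same held for XM_019853317.2 and XM_019853318.2 of LOC105052497 (21.8 TPM in low-yield Yangambi). XM_010939448.3 had the third-highest score of all and XM_029268069.1 was 198th.

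The 52 members that were the only row paired with their gene had no other known row. Whether unpaired rows belong to the same genes is not known, so the row need not be the whole output of the gene. Their scores had a median of 1.12 and reached 2.54, and their mean levels were higher than those of the other kinds, with a median of 22.7 TPM against 13.96 TPM for rows of genes with several rows and 14.9 TPM for unpaired rows. In 5 of the 52 (9.62%) a library was under 0.1 TPM, against 18 of 66 (27.3%) and 24 of 82 (29.3%) in the other kinds. In bulk tissue a lower level can come from fewer cells of a type or from less RNA per cell, and these cannot be told apart.

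LOC105057324 (XM_029268191.1) had the highest score of this kind. It was measured at 8.81, 3.85 and 0 TPM in the low-, medium- and high-yield SP540 libraries, at 14.0, 47.9 and 6.82 TPM in Yangambi and at 5.58, 34.1 and 37.4 TPM in LaMe. Its highest library was thus the low-yield one in SP540, the medium-yield one in Yangambi and the high-yield one in LaMe. LOC105053636 (XM_010934887.3) was at 1.47, 66.5 and 57.6 TPM in SP540, at 65.0, 23.5 and 96.2 TPM in Yangambi and at 0.495, 2.51 and 15.9 TPM in LaMe. Here the high-yield libraries were high in Yangambi and LaMe, and the low-yield library was the lowest in SP540 and LaMe but not in Yangambi.

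Several single-row members were abundant. LOC105049085 (XM_010928632.2) had the highest mean of all 200 members, 771 TPM, with 470.0, 764 and 967 TPM in SP540, 1274, 597 and 583 TPM in Yangambi and 463, 666 and 1157 TPM in LaMe. Its values stood in the order low, medium, high in SP540 and LaMe and in the opposite order in Yangambi, with 1 library at each step. LOC105051082 (XM_010931363.3) was at 243, 493 and 151 TPM in SP540, at 33.6, 75.7 and 214 TPM in Yangambi and at 237, 111 and 985 TPM in LaMe. Its highest library, high-yield LaMe, was the highest of all 9 for 35 of the 200 members, the largest number for any library, against 12.7% of all rows passing.

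A small number of members owed most of their TPM to 1 library. In 11 members (5.5%) a single library held over 50% of the TPM summed over the 9 libraries, against 0.449% of all rows passing, a measure named after the values were seen. For 7 of the 11 that library was medium-yield Yangambi, and for the other 4 it was low-yield Yangambi. Of all 11142 rows passing, 10 and 32 were of these 2 types, so that 7 of the 10 rows dominated by medium-yield Yangambi were members. The rule used these same values: 1 high library widens the range of its population and raises the mean. These shares are therefore a description and no result about the members.

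In the medium-yield Yangambi library LOC105039460 (XM_010915612.3) stood at 971 TPM, against 5.53 and 6.48 TPM in the low- and high-yield libraries of the same population. In the other populations it was at 3.78, 12.6 and 4.45 TPM (SP540) and at 7.80, 7.14 and 35.3 TPM (LaMe). XM_010934659.3 was at 187 TPM in medium-yield Yangambi and at 0 to 7.65 TPM elsewhere. Both were highest within LaMe in the high-yield library. LOC105060373 (XM_010944042.2) was at 129 TPM in medium-yield Yangambi and at 0.142 to 6.14 TPM in the other 8 libraries, and XM_010944742.2 was at 84.5 TPM and at 0 to 8.72 TPM. In both rows and in XM_010934659.3 the mean of at least 10 TPM that the rule required rested on medium-yield Yangambi. XM_010913099.2 was at 191 TPM there, with a next-highest value of 35.9 TPM in high-yield LaMe. LOC105054663 and LOC105058893 made up the rest of this group, with 142 and 227 TPM in medium-yield Yangambi.

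In low-yield Yangambi LOC105047941 (XM_010927093.3) reached 2271 TPM, against 99.5 and 431 TPM in the medium- and high-yield Yangambi libraries. In SP540 it was at 69.9, 76.4 and 225 TPM and in LaMe at 60.4, 88.7 and 204 TPM, so that within both of these populations the high-yield library was the highest. LOC105040381 (XM_010916871.3) was at 1758, 10.98 and 304 TPM in Yangambi, at 9.88, 16.0 and 24.5 TPM in SP540 and at 3.28, 13.7 and 16.3 TPM in LaMe. The order of the libraries within each population was the same for both genes. XM_010918141.3 (129 TPM) and XM_010923826.3 of LOC105045515 (65.4 TPM) were also highest there. In XM_010923826.3 every other library was under 10 TPM, so its mean of at least 10 TPM rested on low-yield Yangambi.

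**Figure D4:**
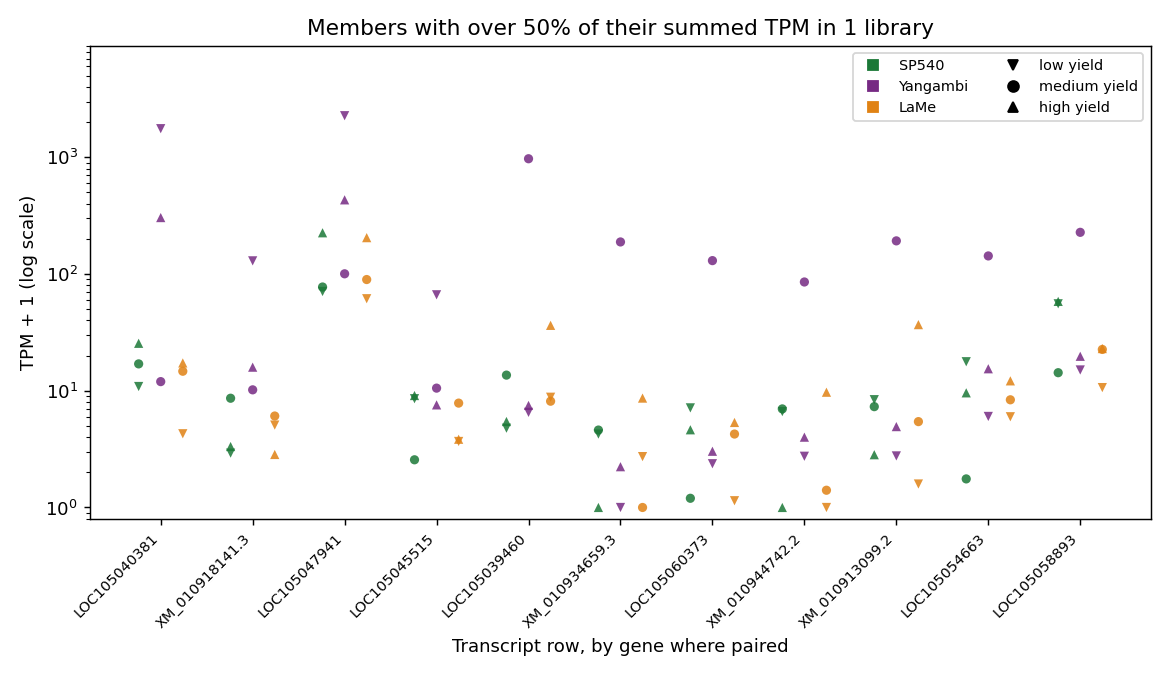
TPM + 1 on a log scale for the 11 members with over 50% of their summed TPM in 1 library, with 1 point per library, coloured by population and shaped by yield class. The highest point is low-yield Yangambi in the 4 columns on the left and medium-yield Yangambi in the other 7, up to 2271 TPM in LOC105047941.

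The unpaired rows held the largest scores of all. XM_019854902.2, with the highest score (4.20), was at 0.0164, 42.4 and 27.2 TPM in the low-, medium- and high-yield SP540 libraries, at 18.3, 0.0506 and 18.0 TPM in Yangambi and at 24.99, 23.4 and below 0.1 TPM in LaMe. It was near 0 in 1 library of each population, a different yield class each time, and at 18.0 to 42.4 TPM in the other 6. XM_019848973.2 was at 1.14, 0.00213 and 159 TPM in SP540, at 33.0, 4.21 and 127 TPM in Yangambi and at 2.84, 52.7 and 45.3 TPM in LaMe. XM_010919010.3 was at 1.92, 5.55 and 66.1 TPM in SP540, at 83.3, 6.10 and 31.9 TPM in Yangambi and at 35.5, 4.97 and 5.63 TPM in LaMe. XM_019848973.2 was thus highest in high yield in SP540 and Yangambi and in medium yield in LaMe, and XM_010919010.3 in high yield in SP540 and in low yield in Yangambi and LaMe.

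Another 6 unpaired rows among the 20 highest scores stayed at lower levels, with means of 10.1 to 11.1 TPM. XM_029263989.1, XM_029265181.1, XM_010922108.3, XM_010925855.3, XM_010940984.2 and XM_029264614.1 had scores of 2.07 to 2.78, and none of them exceeded 33.4 TPM in any library. XM_029265181.1 was at 33.2, 3.62 and 32.6 TPM in SP540 and at 8.99 TPM or less in each Yangambi and LaMe library. Of the 20 highest scores, 14 had at least 1 library under 0.1 TPM.

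Neighbours among the members were looked for in the gene table, and the number to be met among other genes was not computed. In 5 pairs of member genes at most 2 other genes lay between them, and in 2 of these none did. One of these adjacent pairs, LOC105044827 and LOC105044832, was highest in low and lowest in high yield in SP540 (27.8, 13.8 and 5.79 TPM for the first, 262, 136 and 36.1 TPM for the second) and had its highest Yangambi values in the high-yield library (13.9 and 103 TPM). In LaMe this pair differed, with 15.2, 16.0 and 32.2 TPM for the first and 70.1, 119 and 52.6 TPM for the second. In the other adjacent pair each gene had several rows, and the values given are those of the member rows, not of the gene sums. These rows went apart in SP540 and LaMe. The row of LOC105042485 was at 77.4, 33.5 and 44.2 TPM in SP540 and 53.8, 30.7 and 80.5 TPM in LaMe. That of LOC105042496 was at 13.6, 32.2 and 32.3 TPM in SP540 and 13.1, 19.3 and 7.12 TPM in LaMe. In Yangambi both rows were highest in the high-yield library (78.1 and 23.7 TPM). LOC105053617 and LOC105053618, with 1 gene between them, had the same order of libraries in SP540 and in Yangambi: both were lowest of all 9 in low-yield Yangambi (3.14 and 2.76 TPM) and highest of all 9 in low-yield SP540 (37.5 and 59.0 TPM). LOC105060136 and LOC105060074, also with 1 gene between them, were both lowest in high yield in SP540 (16.6 and 26.2 TPM), but in LaMe the medium-yield library was the highest for the first (34.7 TPM) and the lowest for the second (54.0 TPM). LOC105037879 and LOC105037320 had 2 genes between them, and each had several rows. Their member rows were both highest in medium yield in SP540 (28.3 and 13.7 TPM). In LaMe the low-yield library was the highest for the first row (28.97 TPM) and the lowest for the second (4.57 TPM).

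Which yield class was high was seldom the same from population to population. The highest class can fall in 27 combinations over the 3 populations, and each held 2 to 16 members. The same class was highest in all 3 populations for 10 members (5%), against 8.81% of all rows passing, and the same class was lowest in all 3 for 15 (7.5%), against 9.07%. Both shares were under those of all rows, which was not tested, and rows that stepped with yield in all 3 populations had been set aside in both. A different class was highest in each population for 49 members (24.5%), against 24.2%, and lowest in each for 58 (29%), against 23.1%. The high-yield library was the highest of LaMe for 95 members (47.5%), against 40.9%.

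The 10 members with a shared highest class included 3 highest in low yield, 5 in medium yield and 2 in high yield. XM_010934298.3 was highest in low yield and lowest in medium yield in each population, at 109, 0.63 and 48.1 TPM in SP540, 195, 7.86 and 47.9 TPM in Yangambi and 123, 42.3 and 84.5 TPM in LaMe. XM_010942250.3 was highest in high yield, at 18.3, 12.4 and 27.7 TPM in SP540, Yangambi and LaMe, and at 1.68, 1.30 and 2.29 TPM in their medium-yield libraries, but its low-yield value was 17.2 and 19.3 TPM in SP540 and LaMe and 1.27 TPM in Yangambi. XM_010913590.3 and XM_029267821.1 were highest in medium yield, at 16.4 and 13.2 TPM in SP540, 13.8 and 26.4 TPM in Yangambi and 21.2 and 13.8 TPM in LaMe. The first is 1 of 4 rows of LOC105037950, whose sum had a score of 0.39.

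Among the 15 members with a shared lowest class, 4 were lowest in low yield, 5 in medium yield and 6 in high yield. XM_010937490.2 and XM_010911934.3, described above, were those with the highest scores in low yield, and XM_010939448.3 in high yield. XM_029261155.1 was at 3.75, 0 and 3.71 TPM in the high-yield SP540, Yangambi and LaMe libraries, and at 6.002 to 17.7 TPM in the other 6. XM_019854702.2 was lowest in medium yield, at 8.13, 10.5 and 6.85 TPM, although the high-yield LaMe library was close to it at 7.46 TPM. XM_019845938.2, singled out after its values were seen, had nearly the same low value in each high-yield library (7.39, 7.47 and 7.28 TPM in SP540, Yangambi and LaMe) and 13.6 to 18.4 TPM in the other 6. The sum of both rows of its gene, LOC105060971, had ranges of 0.14 to 0.81.

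**Figure D5:**
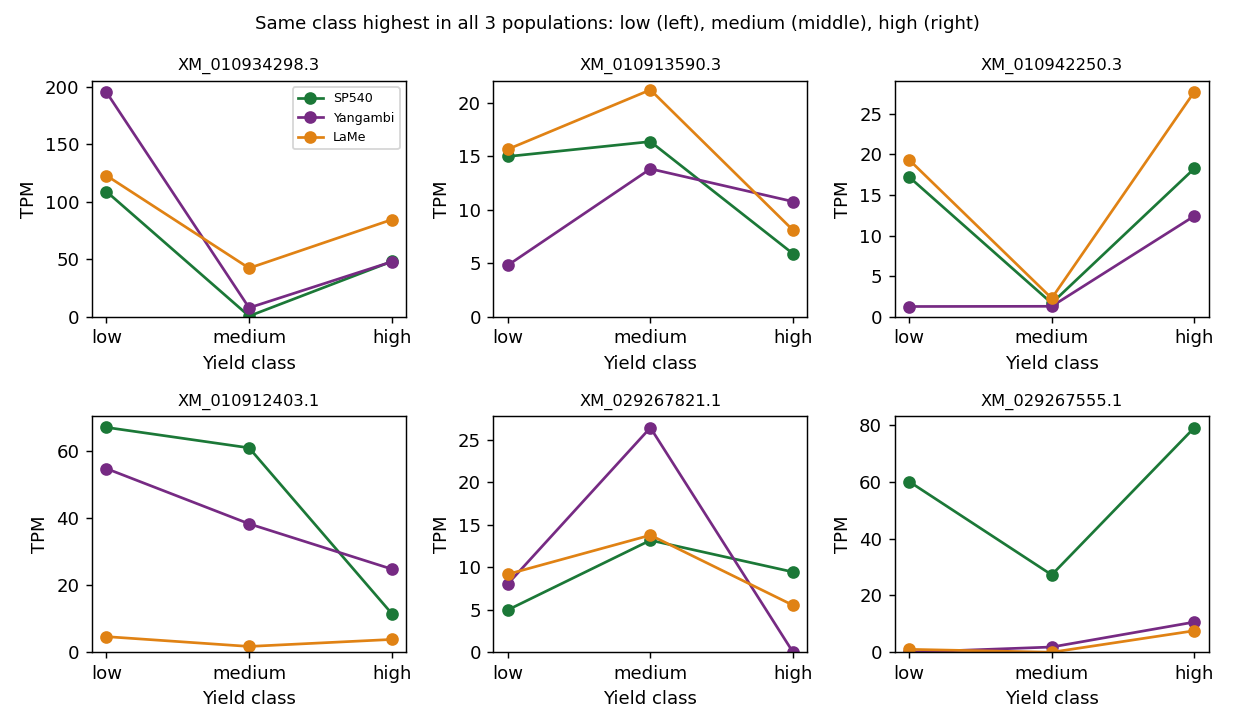
TPM in low-, medium- and high-yield libraries of SP540, Yangambi and LaMe for 6 members in which the same class was highest in all 3 populations, with 1 library per point and no error bars. The low class is highest on the left, the medium class in the middle and the high class on the right, as in XM_010942250.3 at 18.3, 12.4 and 27.7 TPM.

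The members had been selected on differences between yield classes, so that tests between these classes say nothing further about them. For high against low yield limma (a linear model fitted to all rows, on log2(TPM + 1), with population as a term) called 0 of 30576 tested rows at an adjusted p of 0.05 (percent called 0), members included, and 4.66% had an unadjusted p under 0.05. For medium against low yield and high against medium yield it called 0 rows as well (percent called 0 each), with 3.47% and 4.4% at an unadjusted p under 0.05. All 200 members passed the filter of at least 1 TPM in at least 3 libraries.

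Differences between populations were not used to choose the members, although the choice on within-population ranges also bears on their residual spread: the median residual SD was 1.004 on the log2 scale for the members and 0.38 for all tested rows. For Deli x Yangambi against Deli x LaMe, limma with yield class as a term called 1 of 200 members, where 0.383% of all 30576 rows were called. The member was XM_010938721.1, at 0, 0 and 1.62 TPM in the low-, medium- and high-yield Yangambi libraries and 23.9, 47.9 and 42.4 TPM in the LaMe libraries. The populations did not overlap, and the difference was -4.77 on the log2 scale (SE 0.598, limma adjusted p = 0.0372), lower in Yangambi in 3 of 3 yield classes. In SP540 the row was at 14.6, 2.36 and 6.49 TPM. The call was made in 7 of 17 settings, and it was lost without any 1 of 8 libraries: all but the low-yield SP540 library.

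For Deli x SP540 against Deli x LaMe 0 of 200 members were called, where 0.242% of all rows were. The lowest adjusted p among members, 0.0567 in limma, belonged to XM_029267555.1, at 55.5 ± 26.2 TPM in SP540 and 2.87 ± 4.11 TPM in LaMe (SD, n = 3 each; log2 difference 4.32, SE 0.615, higher in SP540 in 3 of 3 yield classes). It was 4.16 ± 5.69 TPM in Yangambi. Next came XM_010912403.1, at 46.5 ± 30.5 TPM in SP540, 39.3 ± 15.0 TPM in Yangambi and 3.40 ± 1.51 TPM in LaMe, with limma adjusted p-values of 0.0880 for the SP540 difference from LaMe and 0.0667 for the Yangambi one. Both comparisons share the 3 LaMe libraries. For Deli x SP540 against Deli x Yangambi 0 members were called, where 0.00327% of all rows were, and in the joint test of any difference among populations 0 members were, where 0.327% of all rows were called.

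At an unadjusted limma p under 0.05 the members stood at 39 of 200 (19.5%) for Yangambi against LaMe, where the share of all rows was 13.8%. They stood at 19 of 200 (9.5%) for SP540 set against LaMe, where it was 10.1%, and at 21 of 200 (10.5%) for SP540 against Yangambi, where it was 9.54%. In the joint test they stood at 29 of 200 (14.5%), where it was 12.7%. The median absolute log2 difference between populations was 0.78, 0.53 and 0.65 for the members in these comparisons, and 0.31, 0.27 and 0.27 over all tested rows. The members' differences were also less precise, with a median SE of 0.64 in each comparison against 0.34 over all tested rows. The rule selected for this wider spread, so the larger differences are no result about the members.

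The score threshold did not fall in a gap. Just inside it were XM_029268069.1, XM_010928796.3 and XM_010917676.2, with ranges of at least 1.954-fold, 1.953-fold and 1.953-fold in every population, and just outside it XM_010942463.1, XM_010939428.3 and XM_010917191.3, with 1.952-fold, 1.951-fold and 1.948-fold.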

How the data were processed

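RNA of 9 leaf libraries was extracted with a Norgen kit and made into libraries with TruSeq mRNA reagents, per the labels' protocols. The authors deposited 1 table of TPM values for 51490 transcript rows, with columns that each total 1000000. The submitters' processing notes name fastp, kallisto and DESeq2, without versions; the transcript set and its build are not stated in any label or header read here. Rows were paired by accession without version with the RefSeq gene table of assembly EG11 (31716 rows, 61.6%), used only for names and neighbours.

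Members and comparisons were chosen with earlier results of these data known. Limma 3.58.1 in R 4.3.3 (trended, robust prior, statmod 1.5.0) was fitted to log2(TPM + 1) of all rows reaching 1 TPM in 3 or more libraries, with additive population and yield terms and two-sided p-values adjusted by Benjamini-Hochberg over 30576 rows, and tested on simulated data. With 1 library per combination an interaction could not be fitted. Fold changes are on the log2(TPM + 1) scale, which understates those of low rows. Named rows were the 20 highest scores, the 2 highest per shared pattern, members called between populations and the rows at the threshold; others were chosen after their values were seen. Gene lists by product name and promoter motifs were not analysed here. Alternatives were other pseudocounts, filters, gene sums, no covariate, only the libraries compared and single libraries left out.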

Additional observations from a re-analysis of the deposited data

How the results depend on the processing

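The libraries of the 3 populations were matched by yield class, which was a term of the fit; the counts without it are those with no covariate below, and the labels give no other replicate number to pair by. Of the 200 members, 188 and 164 were among the 200 highest scores with pseudocounts of 0.1 and 5, 180 after scaling libraries to a common median, 141 with rows summed per gene, 88 with the median of the 3 ranges as score, and 105 to 130 with single libraries left out. With a pseudocount of 5, 8 gene sums reached the threshold. The same class was highest for 9 to 15 members and lowest for 15 to 16 under these scores.

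The rows called for SP540 against LaMe (74), Yangambi against LaMe (117), SP540 against Yangambi (1) and any population difference (100) came to 48, 70, 5 and 55 with a pseudocount of 0.1. They came to 44, 46, 0 and 46 with no filter, to 129, 176, 14 and 153 with rows summed per gene, and to 201, 389, 47 and 315 with no covariate. With only the 6 libraries compared they came to 31, 46 and 0. SP540 against Yangambi gave 3 rows with a pseudocount of 5 and 0 with a mean of at least 10 TPM. Leaving out single libraries gave 22 to 52, 18 to 78, 0 to 11 and 15 to 61. The lowest values for SP540 against LaMe (22), Yangambi against LaMe (18), any population difference (15) and membership (105) all came without the high-yield LaMe library. Members called numbered 0 to 3 in every setting. The cause was not tested. Depth is unknown, so error at low TPM could not be separated from differences between palms.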
